A study of Mus musculus with 6 samples.

Results

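Roquin, Regnase and ZFP36 proteins shorten the life of mRNAs in T cells, and several ubiquitin ligases do the same for signaling proteins. Transcripts of 10 such brakes were examined: the Roquin genes Rc3h1 and Rc3h2, the Regnase genes Zc3h12a and Zc3h12d, Zfp36 and Zfp36l2, and the ubiquitin ligase genes Itch, Cblb, Cul3 and Peli1. They were taken by gene symbol, and all 10 were among the 14744 genes of the deposited table and the 11296 genes with at least 10 normalized counts in at least 3 libraries.

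Roquin proteins bind small hairpins in the 3' untranslated regions (3' UTRs) of mRNAs such as Icos and recruit the deadenylation machinery, while Regnase-1, the Zc3h12a product, cuts an overlapping set of mRNAs as an endonuclease. ZFP36 proteins bind AU-rich elements in cytokine mRNAs. A point mutation in Roquin-1 causes spontaneous accumulation of T follicular helper (Tfh) cells and lupus-like autoimmunity in sanroque mice, and loss of Itch, Cblb or Peli1 also breaks T cell tolerance.

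The data are RNA-seq libraries of Tfh cells from mesenteric lymph nodes of C57BL/6 mice (C57BL/6J background per the study's methods), with 3 libraries labelled WT and 3 labelled Bach2 fl/fl Cd4-cre. Cd4-cre acts in T-lineage cells from the CD4-expressing thymic stage on, so the deletion is not limited to Tfh cells. Cd4-Cre littermates served as WT per the study's text, so that Cre was shared by both groups, and the study's legend gives an age of 2 to 3 months. Cells were sorted as CD4+B220-CD44+PD-1+CXCR5+, and cDNA was amplified with a low-input SMARTer kit. Nothing states that each library came from a separate animal, so p-values measure only the spread between these libraries.

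Values are normalized read counts, that is, reads per gene divided by a size factor for each library. They summed to 7809702, 7387316 and 8135325 in WT replicates 1, 2 and 3 and to 7456435, 7362290 and 7361229 in replicates 1, 2 and 3 labelled Bach2-deficient. WT replicate 1 had 11648 genes above 0, fewer than the 13111 to 13567 genes of the other 5 libraries. The read numbers recovered from the steps between values ran from 5045131 in replicate 1 labelled Bach2-deficient to 10987752 in replicate 2 of that group. These are PCR-amplified reads, so that depth limits counting error only.

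Bach2 itself, the deleted transcription factor, was at 233, 222 and 105 normalized counts in WT replicates 1, 2 and 3 and at 399, 763 and 591 in replicates 1, 2 and 3 labelled Bach2-deficient. Every library labelled Bach2-deficient thus lay above every WT library, against the direction of a deletion (log2 fold change 1.68, SE 0.37, limma adjusted p = 0.141). Bach2 passed the thresholds of a more than 2-fold change at an adjusted p under 0.01 with library weights (2.36, limma adjusted p = 0.000186). It also passed them in DESeq2 on the libraries without WT replicate 1 (1.81, DESeq2 adjusted p = 0.00123), but not in edgeR on the same libraries. Its adjusted p ranged up to 0.507 over the alternatives. Values per exon were not analysed here, so reads from exons a deletion leaves in place cannot be told apart from the rest. The group is therefore called by its label, and each direction given here rests on that label.

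Of the 10 brakes, 9 had a higher mean log2 level in the libraries labelled Bach2-deficient, beside 54.8% of all genes tested. Their median log2 fold change was 0.35, and that of all genes tested was 0.082. In the limma fit, 0 of 10 passed the thresholds of a more than 2-fold change at an adjusted p under 0.01, as did 0% of all genes in the higher and 0% in the lower direction. At an unadjusted limma p under 0.05, 3 of 10 were higher (Rc3h1, Zfp36l2 and Peli1) beside 10.1% of all genes, and 0 of 10 were lower beside 10.2%. The groups did not overlap for 2 of 10 in the higher direction (Rc3h1 and Zfp36l2), beside 14.6% of all genes, and for 0 of 10 in the lower, beside 12.2%. Among all genes, limma called 0 past the thresholds and 2301 at an unadjusted p under 0.05. On the 5 libraries used in the count tests, edgeR called 0 genes higher and 0 lower past the thresholds and DESeq2 called 33 higher and 57 lower, none of them a brake.

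A length and GC correction, in which a smooth trend in transcript length and GC content was taken off each library, moved the median of all genes by -0.12 and left 6 of the 10 brakes above 0, with a median of 0.067 beside -0.036 for all genes. The directions of Zc3h12a, Zc3h12d and Itch turned with it, so the count of 9 depends on that setting. The count above 0 was 8 after median rescaling or quantile normalization, where Zc3h12d alone turned, with library weights, without WT replicate 1 and without WT replicate 3. It was 7 without replicate 2 labelled Bach2-deficient, in edgeR and in DESeq2, so it also depends on the libraries and on the method. The count of brakes with groups apart in the higher direction was 4 after this correction, beside 8.91% of all genes, 4 without WT replicate 2, beside 21.6%, and 6 without replicate 3 labelled Bach2-deficient, beside 27.2%. Fewer cells of a type and less RNA per cell cannot be told apart in these bulk libraries.

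**Figure D1:**
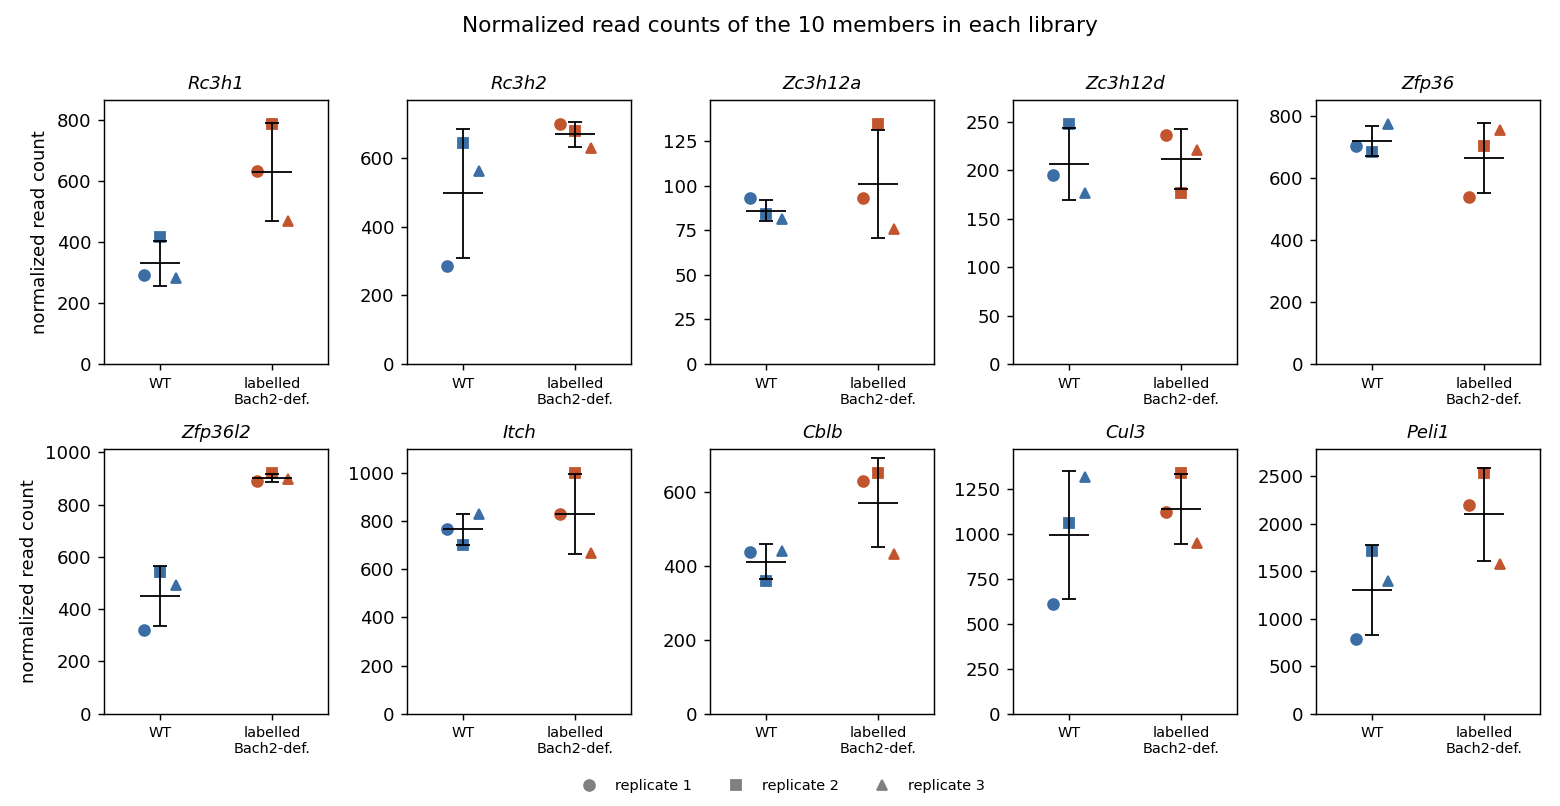
Normalized read counts (vertical axis, from 0) of the 10 brakes in each of the 6 libraries, 1 panel a gene, with WT libraries at the left and libraries labelled Bach2-deficient at the right; bars give mean ± SD (n = 3) and the marker shape gives the replicate number. Rc3h1 and Zfp36l2 are the 2 genes whose groups do not overlap.

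Rc3h1 encodes Roquin-1, the hairpin-binding repressor mutated in sanroque mice. It was at 291, 416 and 282 normalized counts in WT replicates 1, 2 and 3 and at 631, 787 and 467 in replicates 1, 2 and 3 labelled Bach2-deficient. The lowest library labelled Bach2-deficient, replicate 3, stood above the highest WT library, replicate 2, so the groups did not overlap. The means were 329.5 ± 75.1 and 629 ± 160.0 (SD, n = 3 each), a ratio of 1.91. Its log2 fold change was 0.92 (SE 0.28, 95% interval 0.30 to 1.54, limma adjusted p = 0.151). It was 0.60 after the length and GC correction (limma adjusted p = 0.343). With library weights it was 1.24 (limma adjusted p = 0.000633) and passed the thresholds, the lowest adjusted p in a range up to 0.507 over the alternatives. Library weights give replicate 2 labelled Bach2-deficient a weight of 5.54 and WT replicate 1 a weight of 0.206.

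The Rc3h1 promoter is printed because Bach factors and AP-1 bind the letters TGANTCA, and it was the single promoter among 8 of the 10 brakes that held them. The window of 300 bases is RefSeq's, from 250 before the start site to 50 after it, at chr1:160906161-160906460 on the plus strand of GRCm38.p6, and capitals mark the match at chr1:160906278-160906284. Both strands were searched. Of 32851 promoters of the same length, 7.81% held TGANTCA and 1.19% held the longer GCTGANTCA, which contains it and which none of the 8 promoters held. Zfp36l2 and Itch had no entry. A match describes the letters and not binding.
Rc3h1 promoter: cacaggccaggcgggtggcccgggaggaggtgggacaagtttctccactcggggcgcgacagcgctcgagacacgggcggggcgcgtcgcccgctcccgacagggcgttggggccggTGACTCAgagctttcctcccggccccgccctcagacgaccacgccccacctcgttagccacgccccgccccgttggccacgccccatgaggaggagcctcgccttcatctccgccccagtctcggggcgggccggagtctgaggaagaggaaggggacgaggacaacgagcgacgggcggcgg

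Rc3h2 encodes Roquin-2, which overlaps with Roquin-1 in function. It was at 285, 645 and 564 normalized counts in WT replicates 1, 2 and 3 and at 700.5, 681 and 629 in replicates 1, 2 and 3 labelled Bach2-deficient. The groups overlapped at WT replicate 2, and WT replicate 1 stood far below the other 5 libraries. The fitted log2 fold change was 0.51 (SE 0.31, 95% interval -0.17 to 1.19, limma adjusted p = 0.351), and without WT replicate 1 it was 0.15. It was 0.22 after the length and GC correction. Per kb of longest transcript, the level of Rc3h2 was 55.6 in WT and 74.9 in the libraries labelled Bach2-deficient, and that of Rc3h1 was 29.9 and 57.1.

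The ratio of Rc3h1 to Rc3h2 normalized counts was 1.02, 0.645 and 0.5 in WT replicates 1, 2 and 3 and 0.901, 1.16 and 0.743 in replicates 1, 2 and 3 labelled Bach2-deficient. The groups overlapped, and the difference of 0.41 in log2 ratio had an exact 2-sided permutation p = 0.3 (0.4 adjusted over the 4 ratios compared). With 3 libraries against 3, this exact test cannot go below 0.1. The difference ranged from 0.18 without WT replicate 3 to 0.69 without WT replicate 1.

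Roquins bind hairpins whose stem closes on a small loop, and a search of annotated 3' UTRs, chosen after the other analyses were laid out, looked for TTCNNNGAA with at least 2 further base pairs outward on the transcript's strand. It was found in 8.91% of the longest 3' UTRs of 21173 genes, and TTCNNNGAA alone in 35.8%. Among the 10 brakes, 3 held such sites: 2 each in Rc3h1 and Rc3h2, with 3' UTRs of 7181 and 5331 bases, and 1 in Zc3h12d, with 2327 bases. The Roquin sites with the same core and the same 4 bases on either side are shown, with the core in capitals and T for U. They lie at chr1:160971655-160971679 on the plus strand for Rc3h1 and chr2:37373804-37373828 on the minus strand for Rc3h2 (GRCm38). Longer 3' UTRs hold more matches, and a match is a description of the letters.
Rc3h1 3' UTR: ccaataacTTCTGTGAAgttgcctt
Rc3h2 3' UTR: taattaacTTCTGTGAAgttgttta

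Zc3h12a encodes Regnase-1, the endonuclease that cleaves hairpin-bearing mRNAs and is itself cut by the protease Malt1 after T cell receptor signaling. It was at 92.9, 84.1 and 81.1 normalized counts in WT replicates 1, 2 and 3 and at 93.1, 135 and 75.7 in replicates 1, 2 and 3 labelled Bach2-deficient. The group labelled Bach2-deficient held both the highest and the lowest library, so the groups overlapped. On the log2 scale the difference was 0.19 (SE 0.40, 95% interval -0.70 to 1.08, limma adjusted p = 0.805), with a sign that rested on replicate 2 labelled Bach2-deficient (-0.033 without it) and was negative after the length and GC correction (-0.11). With library weights the difference was 0.59 (limma adjusted p = 0.123). Without replicate 3 labelled Bach2-deficient it was 0.38, and the groups were then apart in the higher direction.

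Zc3h12d encodes Regnase-4, a relative that also restrains T cell activation. It was at 195, 248 and 177 normalized counts in WT replicates 1, 2 and 3 and at 236, 177 and 221 in replicates 1, 2 and 3 labelled Bach2-deficient. The groups covered nearly the same range, with a log2 fold change of 0.038 (SE 0.30, 95% interval -0.62 to 0.70, limma adjusted p = 0.954) that was -0.047 after median rescaling and -0.36 after the length and GC correction. Per kb of longest transcript, the level of Zc3h12a was 31.2 in WT and 36.7 in the libraries labelled Bach2-deficient, and that of Zc3h12d was 50.5 and 51.7. The ratio of Zc3h12a to Zc3h12d ran from 0.339 to 0.477 in WT and from 0.343 to 0.761 in the libraries labelled Bach2-deficient. These ranges overlapped (difference in log2 ratio 0.15, exact permutation p = 0.8, 0.8 adjusted over the 4 ratios), and the difference was -0.19 without replicate 2 labelled Bach2-deficient.

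Zfp36 encodes tristetraprolin, which binds AU-rich elements. It was at 702, 684 and 776 normalized counts in WT replicates 1, 2 and 3 and at 539, 703 and 757 in replicates 1, 2 and 3 labelled Bach2-deficient. The groups overlapped, with replicate 1 labelled Bach2-deficient the lowest of the 6. Zfp36 was the brake with a log2 fold change below 0, at -0.13 (SE 0.22, 95% interval -0.61 to 0.36, limma adjusted p = 0.759), and it was 0.019 without that library. It was -0.29 after the length and GC correction.

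Zfp36l2 encodes a second AU-rich element binding protein of this family, with roles in lymphocyte quiescence. It was at 321, 541 and 491 normalized counts in WT replicates 1, 2 and 3 and at 889.7, 920.0 and 900.0 in replicates 1, 2 and 3 labelled Bach2-deficient. The libraries labelled Bach2-deficient lay close together and all stood above the WT libraries, which were spread more widely. The means were 451 ± 115 and 903 ± 15.4 (SD, n = 3 each), a ratio of 2.0, with a coefficient of variation of 25.5% in WT and 1.70% in the libraries labelled Bach2-deficient. Its log2 fold change was 1.04 (SE 0.25, 95% interval 0.49 to 1.58, limma adjusted p = 0.141). After the length and GC correction it was 0.63, and on the 5 libraries used in the count tests it was 0.78 (DESeq2 adjusted p = 0.0509, in a range of 0.000851 to 0.507 over the alternatives).

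The ratio of Zfp36 to Zfp36l2 normalized counts was 2.19, 1.27 and 1.58 in WT replicates 1, 2 and 3 and 0.606, 0.764 and 0.841 in replicates 1, 2 and 3 labelled Bach2-deficient. It was above 1 in every WT library and below 1 in every library labelled Bach2-deficient. The difference in log2 ratio was -1.16, with the smallest exact permutation p that 3 against 3 allows, 0.1 (0.2 adjusted over the 4 ratios). Per kb of longest transcript, the level of Zfp36 was 258 in WT and 239 in the libraries labelled Bach2-deficient, and that of Zfp36l2 was 128 and 256. On this per-kb scale Zfp36 was above Zfp36l2 in every WT library and in replicate 3 labelled Bach2-deficient (271 and 255), and below it in replicates 1 (193 and 252) and 2 (252 and 261). Antisense genes are annotated over both genes (Gm44710 and AC132455.1), and the strand setting of the counting was not given, so reads from the pairs cannot be told apart.

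**Figure D2:**
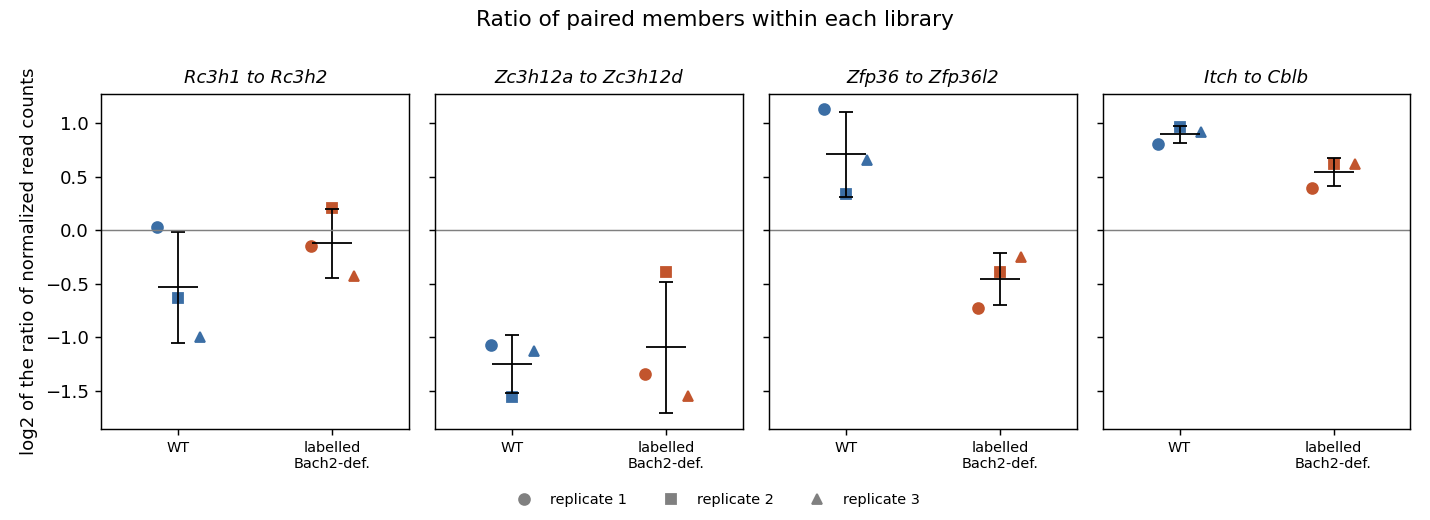
Log2 ratio of normalized read counts (vertical axis) between 2 brakes of the same family, or between the ligase genes Itch and Cblb, in each library. Bars give mean ± SD (n = 3) for WT and for the libraries labelled Bach2-deficient. The ratios of Zfp36 to Zfp36l2 and of Itch to Cblb are lower in all 3 libraries labelled Bach2-deficient than in any WT library, and the Roquin and Regnase ratios overlap between the groups.

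The ubiquitin ligases act on proteins rather than on mRNA. Cblb encodes Cbl-b, a RING-type ligase that raises the threshold for T cell activation without CD28. It was at 439, 359 and 439.8 normalized counts in WT replicates 1, 2 and 3 and at 631, 652 and 434 in replicates 1, 2 and 3 labelled Bach2-deficient. Replicate 3 labelled Bach2-deficient lay among the WT libraries and the other 2 lay above them. The fitted log2 fold change was 0.45 (SE 0.25, 95% interval -0.10 to 1.01, limma adjusted p = 0.317) and 0.016 after the length and GC correction.

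Itch encodes a HECT-type ligase that targets Junb and other activation factors. It was at 769, 701 and 829.8 normalized counts in WT replicates 1, 2 and 3 and at 829, 1000.4 and 668 in replicates 1, 2 and 3 labelled Bach2-deficient. The latter group held both the highest and the lowest library, so the groups overlapped. On the log2 scale the difference was 0.10 (SE 0.22, limma adjusted p = 0.812), -0.040 without replicate 2 labelled Bach2-deficient and -0.12 after the length and GC correction.

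The ratio of Itch to Cblb was 1.75, 1.95 and 1.89 in WT replicates 1, 2 and 3 and 1.31, 1.53 and 1.54 in replicates 1, 2 and 3 labelled Bach2-deficient. All 3 of the latter lay below the lowest WT library. The difference in log2 ratio was -0.35 (exact permutation p = 0.1, 0.2 adjusted over the 4 ratios), and it was -0.14 after the length and GC correction.

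Cul3 encodes the cullin scaffold of ligases that use BTB-domain adaptors. It was at 612, 1063 and 1318 normalized counts in WT replicates 1, 2 and 3 and at 1126, 1340.1 and 951 in replicates 1, 2 and 3 labelled Bach2-deficient. WT replicate 1 was the lowest of the 6 and the groups overlapped. Its log2 fold change was 0.25 (SE 0.29, 95% interval -0.40 to 0.89, limma adjusted p = 0.633), and without WT replicate 1 its sign turned (-0.070).

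Peli1 encodes the RING-type ligase Pellino-1, which marks c-Rel for degradation in T cells. It was at 782, 1713 and 1401 normalized counts in WT replicates 1, 2 and 3 and at 2196, 2531 and 1571 in replicates 1, 2 and 3 labelled Bach2-deficient. Replicates 1 and 2 labelled Bach2-deficient were the highest of the 6, and replicate 3 lay between WT replicates 3 and 2. The fitted log2 fold change was 0.74 (SE 0.30, 95% interval 0.067 to 1.41, limma adjusted p = 0.214). It was 0.41 without WT replicate 1, which was again the lowest library. A processed pseudogene lies within the locus on the same strand, so its reads and those of Peli1 could be mixed. On the same strand, 3 other genes are annotated over Rc3h1, 2 over Cul3 and 1 each over Rc3h2 and Zc3h12d. Over Itch, Cblb and Zc3h12d, 1 gene each is annotated on the other strand.

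Per kb of longest transcript, the WT levels of the ligases stood in the order Peli1 (351), Cul3 (212), Itch (144) and Cblb (62.1). On the same per-kb scale, the levels in the libraries labelled Bach2-deficient were 567, 242, 157 and 86.1, in the same order. Per kb, the WT libraries of neighbours in that order overlapped for Peli1 and Cul3 and for Cul3 and Itch, and did not for Itch and Cblb, while no neighbours overlapped among the libraries labelled Bach2-deficient.

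**Figure D3:**
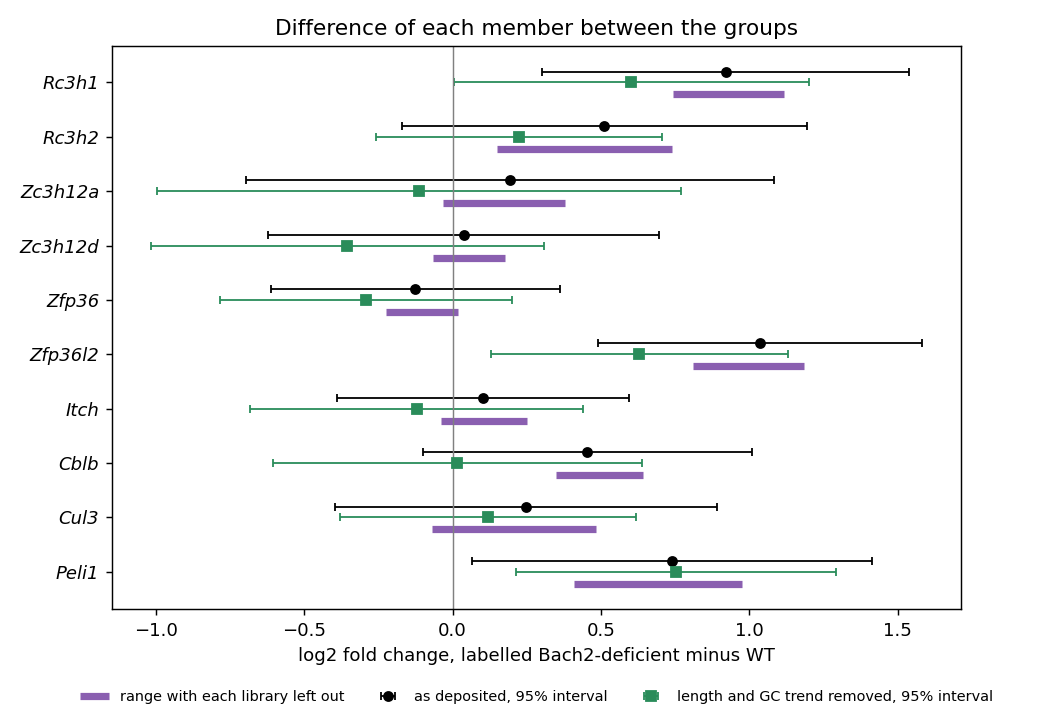
Log2 fold change (horizontal axis, labelled Bach2-deficient minus WT) of the 10 brakes with 95% intervals, from deposited values (black circles) and after the length and GC correction (green squares); purple bars give the range when each library is left out in turn. The intervals from deposited values lie above 0 for Rc3h1, Zfp36l2 and Peli1, and the green squares of Zc3h12a, Zc3h12d, Itch and Zfp36 lie below 0.

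Targets of the mRNA brakes were taken from a list of 12 transcripts known to be bound or cut by Roquin or Regnase-1. Il6 reached 10 normalized counts in no WT library, so it is left out of the counts here. With limma, 0 of the other 11 passed the thresholds, 4 were lower at an unadjusted p under 0.05 (Icos, Tnfrsf4, Tnf and Ifng), and 1 was higher (Nfkbiz). The groups did not overlap for 6 lower and 2 higher, and the median log2 fold change of the 11 was -0.40 beside 0.082 for all genes tested. Over all genes tested, 0% passed the thresholds, 10.2% were lower and 10.1% higher at that unadjusted level, and the groups were apart for 12.2% lower and 14.6% higher; the counts of the other gene lists stand beside the same shares.

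Icos encodes the costimulator that Tfh cells need and that Roquin-1 represses. It was at 2547, 4079 and 4953 normalized counts in WT replicates 1, 2 and 3 and at 1675, 1439.9 and 2511 in replicates 1, 2 and 3 labelled Bach2-deficient. The highest library labelled Bach2-deficient was just below the lowest WT library. On the log2 scale the difference was -1.03 (SE 0.29, limma adjusted p = 0.146). It was -1.58 with library weights (limma adjusted p = 0.000159) and -1.30 on the 5 libraries used in the count tests (DESeq2 adjusted p = 0.00176), the lower end of a range up to 0.507 over the alternatives, and passed the thresholds under both.

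Tnfrsf4, which encodes the costimulatory receptor OX40, was at 5171, 3052 and 4258 normalized counts in WT replicates 1, 2 and 3 and at 1543, 1685 and 2667 in replicates 1, 2 and 3 labelled Bach2-deficient. Its groups did not overlap (log2 fold change -1.09, SE 0.27, limma adjusted p = 0.141), and it passed the thresholds with library weights (-1.19, limma adjusted p = 0.000342, in a range up to 0.507). Tnf was at 499.6, 284 and 252 normalized counts in WT replicates 1, 2 and 3 and at 154, 167 and 204 in replicates 1, 2 and 3 labelled Bach2-deficient. This cytokine mRNA, bound by Roquin and by tristetraprolin, was lower in all 3 of the latter (log2 fold change -0.92, SE 0.33, limma adjusted p = 0.178).

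Nfkbid and Nfkbiz encode atypical IκB proteins, and both mRNAs are targets of Roquin and Regnase-1. Nfkbid was at 748, 536 and 592 normalized counts in WT replicates 1, 2 and 3 and at 455, 449 and 412 in replicates 1, 2 and 3 labelled Bach2-deficient. Nfkbiz was at 199.8, 492 and 485 normalized counts in WT replicates 1, 2 and 3 and at 637, 976 and 538 in replicates 1, 2 and 3 labelled Bach2-deficient. The groups of both genes were apart but in opposite directions, at -0.50 for Nfkbid (limma adjusted p = 0.249) and 0.93 for Nfkbiz (limma adjusted p = 0.207) as log2 fold change. The value for Nfkbiz was 0.51 without WT replicate 1 and 0.59 after the length and GC correction.

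Other targets on the list differed less or varied more. Ctla4, an inhibitory receptor, ran from 729 to 940.0 normalized counts in WT and from 602 to 648 in the libraries labelled Bach2-deficient, and its log2 fold change of -0.38 was 0.094 after the length and GC correction. Rel, which encodes c-Rel, ran from 435 to 573 normalized counts in WT and from 587 to 641 in the libraries labelled Bach2-deficient, and its log2 fold change of 0.30 was 0.20 without WT replicate 1 and -0.021 after that correction. The groups did not overlap for Ctla4 or Rel and overlapped for Irf4, Il2 and Il2ra, with log2 fold changes of 0.51 for Irf4, 1.27 for Il2 and -0.40 for Il2ra. Il2 passed the thresholds with library weights (1.78, limma adjusted p = 0.00510, in a range up to 0.585). The value was 0.15 for Irf4 after the length and GC correction and 0.14 for Il2ra without replicate 1 labelled Bach2-deficient. Il6 was listed at 0, 2.24 and 0 normalized counts in WT and at 13.3, 34.2 and 12.3 in the libraries labelled Bach2-deficient, so it passed the filter on low values through those libraries and had to differ.

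Hairpin sites of the searched kind were found in 5 of the 12 target 3' UTRs (Icos, Ctla4, Nfkbid, Nfkbiz and Tnf), beside 8.91% of all 3' UTRs searched. Those of Icos, Tnf and Nfkbiz are shown because the transcripts stood in different directions, with the core in capitals. They lie at chr1:60999481-60999505 (plus strand), chr17:35199580-35199604 (minus strand) and chr16:55812609-55812633 (minus strand) of GRCm38. Icos, Ctla4, Nfkbid and Tnf were lower in the libraries labelled Bach2-deficient, each with groups apart, and Nfkbiz alone was higher. The log2 fold change of Ctla4 was 0.094 after the length and GC correction.
Icos 3' UTR: aacaaaatTTCTGTGAAataaaatc
Tnf 3' UTR: gacatgttTTCTGTGAAaacggagc
Nfkbiz 3' UTR: taagttgtTTCTATGAAacaaaccc

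A list of 8 targets of ZFP36 proteins shares Tnf, Il2 and Ifng with the first, and 6 of its genes were tested. In the limma fit, 0 of 6 passed the thresholds, and 3 were lower at an unadjusted p under 0.05 (Tnf, Ifng and Il10). The groups did not overlap for the same 3 genes, and the median log2 fold change was -1.15. Csf2 and Il17a did not reach 10 normalized counts in 3 libraries and were not tested, and Ccl3 and Ier3 overlapped between the groups. The log2 fold change of Ier3 was -0.87, and 0.30 without WT replicate 1. That of Ccl3 was -1.65, and -0.40 without WT replicate 3.

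Ifng was at 179.7, 164 and 362 normalized counts in WT replicates 1, 2 and 3 and at 32.5, 91.1 and 51.1 in replicates 1, 2 and 3 labelled Bach2-deficient. Its groups did not overlap (log2 fold change -2.02, SE 0.49, limma adjusted p = 0.141), and it passed the thresholds with library weights (log2 fold change -1.83, limma adjusted p = 0.00231). On the 5 libraries used in the count tests it passed in DESeq2 (-2.18, DESeq2 adjusted p = 0.00345) and not in edgeR. The adjusted p ranged up to 0.507 over the alternatives. Il10 was at 262, 61.7 and 155 normalized counts in WT replicates 1, 2 and 3 and at 59.1, 54.3 and 43.0 in replicates 1, 2 and 3 labelled Bach2-deficient. WT replicate 2 was close to the other group, and the log2 fold change of -1.38 (limma adjusted p = 0.204) was -0.91 without WT replicate 1 and -0.91 after the length and GC correction.

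Genes that mark cytotoxic and natural killer cells were lower as a sum, which was mostly Nkg7. The 7 genes of that list summed to 6029, 4142 and 3541 normalized counts in WT replicates 1, 2 and 3 and to 1499, 3356 and 2191 in replicates 1, 2 and 3 labelled Bach2-deficient, and the groups of these sums did not overlap. Without Nkg7 the sums were 493, 1235 and 908 in WT and 536, 939 and 759 in the libraries labelled Bach2-deficient, and these overlapped. At an unadjusted limma p under 0.05, 1 of 7 genes was lower (Nkg7) and 1 of 7 higher (Gzmb), and Ncr1 was at 0 in WT replicate 1. Gzmb, which encodes granzyme B, was at 2.02, 88.6 and 38.5 normalized counts in WT replicates 1, 2 and 3 and at 79.8, 324 and 231 in replicates 1, 2 and 3 labelled Bach2-deficient, with overlapping groups (log2 fold change 3.05, limma adjusted p = 0.177). Of 6 regulatory T cell markers, all had a log2 fold change below 0 and 4 had groups apart in the lower direction, though the list's sums overlapped (6678, 6949 and 8827 normalized counts in WT and 7009.9, 5912 and 5292 in the libraries labelled Bach2-deficient), led by Ikzf2. Without Ikzf2 the sums were 3283, 2789 and 3469 in WT and 1562, 2374 and 2212 in the libraries labelled Bach2-deficient, and these did not overlap. Il2ra, Ctla4 and Il10 are also on the target lists. The other 3 markers summed to 5001, 5564 and 7322 normalized counts in WT and to 6138, 4492 and 4153 in the libraries labelled Bach2-deficient. Those sums overlapped, though Foxp3 and Tnfrsf18 each had groups apart. Foxp3 was at 222, 315 and 344 normalized counts in WT replicates 1, 2 and 3 and at 47.3, 140 and 91.0 in replicates 1, 2 and 3 labelled Bach2-deficient. The sort for CD4+B220- cells selects against CD8 T cells and natural killer cells and does not select against regulatory T cells. The part of any such cells in the values of Ifng, Il10, Ctla4 and Tnfrsf4 was not tested.

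AU-rich elements of the ZFP36 family were searched in the same 3' UTRs with the letters TATTTATTT on the transcript's strand. They stand in 8.44% of the 21173 longest 3' UTRs, and the shorter ATTTA, which they contain, in 65.6%. Tnf held 4 of them, which overlap in part, Il2 held 1 and Ifng and Il10 held 0. Among the brakes, Rc3h2 and Zfp36l2 held 1 each. The Zfp36l2 site is shown because the product of that gene binds such letters. It lies at chr17:84184681-84184705 on the minus strand of GRCm38, with the letters searched in capitals.
Zfp36l2 3' UTR: gtatgtaaTATTTATTTcattaatt

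Substrates of the ligases were followed as mRNA, which does not show the protein that a ligase acts on. Of 10 listed, 9 were tested. With limma, 0 of 9 passed the thresholds, 3 were higher at an unadjusted p under 0.05 (Bcl6, Plcg1 and Vav1) and 0 were lower. The groups did not overlap for 2 higher (Bcl6 and Rel), and the median log2 fold change was 0.36. Zbtb16, which encodes a Cul3 partner, did not reach 10 normalized counts in 3 libraries and was not tested.

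Bcl6 encodes the repressor that defines Tfh cells and recruits Cul3. It was at 436, 342 and 501 normalized counts in WT replicates 1, 2 and 3 and at 792, 818 and 537 in replicates 1, 2 and 3 labelled Bach2-deficient. Replicate 3 labelled Bach2-deficient was close to the highest WT library, but the groups did not overlap (log2 fold change 0.74, SE 0.26, limma adjusted p = 0.173). After the length and GC correction it was 0.41. Plcg1 and Vav1 encode T cell receptor signaling proteins that Cbl-b restrains. Plcg1 was at 631, 464 and 528 normalized counts in WT replicates 1, 2 and 3 and at 1234, 908 and 586 in replicates 1, 2 and 3 labelled Bach2-deficient. Vav1 was at 565, 466 and 358 normalized counts in WT replicates 1, 2 and 3 and at 959, 758 and 501 in replicates 1, 2 and 3 labelled Bach2-deficient. Both overlapped between the groups through replicate 3 labelled Bach2-deficient. Their log2 fold changes were 0.69 for Plcg1 and 0.65 for Vav1, and they were 0.10 and 0.43 after the length and GC correction. Without replicate 1 labelled Bach2-deficient, the value for Plcg1 was 0.44.

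The tested substrates other than Bcl6 and Rel overlapped between the groups. Log2 fold changes were 0.36 for Prkcq and 0.47 for Pik3r1, both tied to Cbl-b, and 0.10 and 0.08 after the length and GC correction. The value for Prkcq was 0.17 without replicate 1 labelled Bach2-deficient and 0.64 without replicate 3 of that group, and that for Pik3r1 was 0.28 without WT replicate 1. Junb and Jun, substrates of Itch, had log2 fold changes of -0.28 and 0.10. The value for Junb was -0.02 without WT replicate 1, and Jun was under 34 normalized counts in each library with a sign that turned without WT replicate 2 (-0.24). Foxo1, which encodes a transcription factor, had a log2 fold change of 0.24 that was 0.074 without replicate 1 labelled Bach2-deficient and -0.29 after the length and GC correction.

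**Figure D4:**
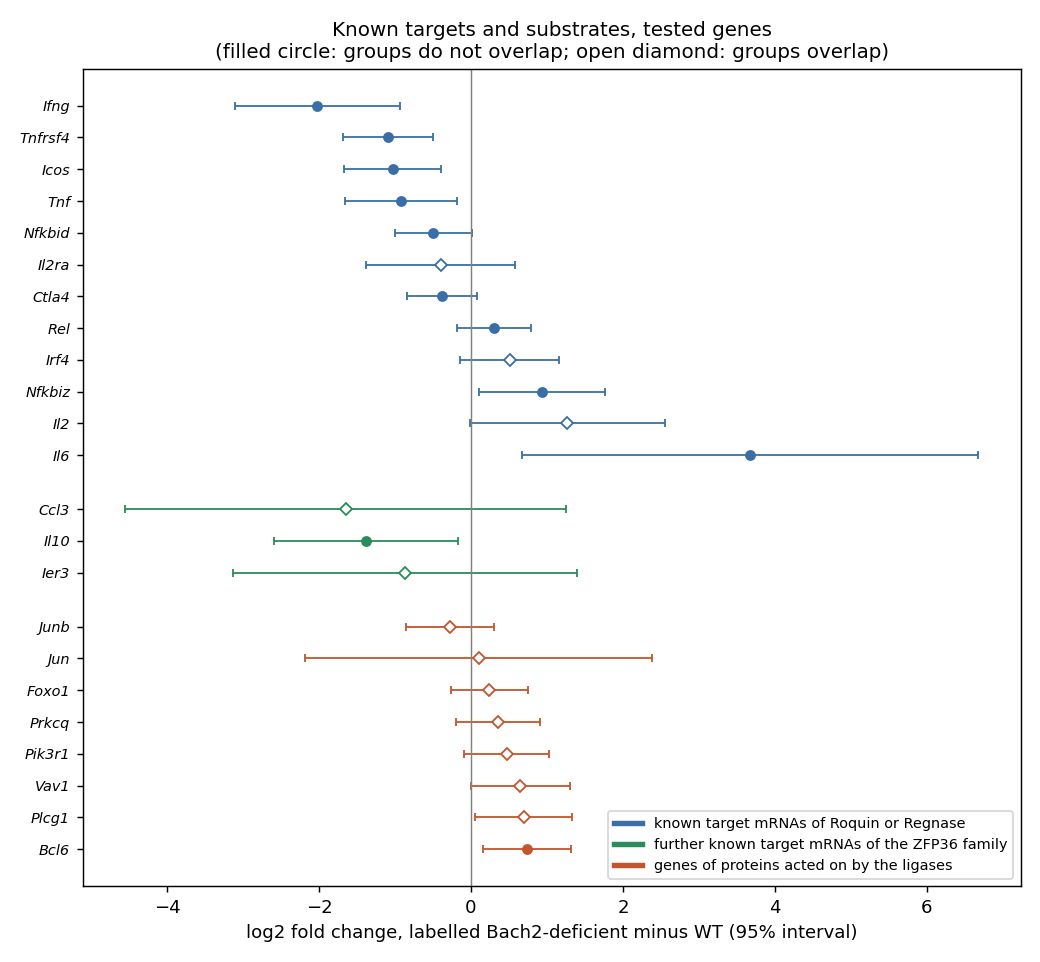
Log2 fold change (horizontal axis, labelled Bach2-deficient minus WT) with 95% interval of Roquin and Regnase targets (blue), further ZFP36 targets (green) and ligase substrates (orange); filled circles are genes whose groups do not overlap and open diamonds are genes whose groups do. Icos, Tnfrsf4, Ctla4, Nfkbid, Tnf, Ifng and Il10 lie below 0 with groups apart. Nfkbiz, Rel and Bcl6 lie above 0 with groups apart, as does Il6, which passed the filter through the libraries labelled Bach2-deficient. The intervals of Ctla4, Nfkbid and Rel reach across 0.

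Roquin and ZFP36 proteins act through deadenylation and decapping, and 22 genes of that machinery were tested. In the limma fit, 0 of 22 passed the thresholds, 3 were higher and 3 lower at an unadjusted p under 0.05, and the groups did not overlap for 5 higher and 3 lower. Of all genes, 10.1% were higher and 10.2% lower at that level, and 14.6% and 12.2% had groups apart. Subunits of the CCR4-NOT deadenylase, which Roquin and ZFP36 proteins recruit, stood in both directions. Cnot2 was at 1469, 1176 and 1289 normalized counts in WT replicates 1, 2 and 3 and at 667, 602 and 818 in replicates 1, 2 and 3 labelled Bach2-deficient. Cnot6 was at 1142, 1242 and 1273 normalized counts in WT replicates 1, 2 and 3 and at 1695, 1885 and 1793 in replicates 1, 2 and 3 labelled Bach2-deficient. Both sets of groups were apart, with log2 fold changes of -0.92 for Cnot2 (limma adjusted p = 0.141) and 0.56 for the deadenylase gene Cnot6 (limma adjusted p = 0.159, and 0.34 on the log2 scale after the length and GC correction). Edc4, a decapping scaffold that binds Roquin-1, was at 26.2, 93.1 and 106 normalized counts in WT replicates 1, 2 and 3 and at 313, 265 and 149 in replicates 1, 2 and 3 labelled Bach2-deficient. Its groups were apart, and its log2 fold change of 1.84 (limma adjusted p = 0.151) was 1.21 without WT replicate 1 and 1.21 after the length and GC correction. With library weights, Cnot2 (-1.03, limma adjusted p = 0.000364, in a range up to 0.507) and Edc4 (1.45, limma adjusted p = 0.00231, in a range up to 0.510) passed the thresholds. Cnot8, a deadenylase subunit of the Caf1 kind, stood at -0.80 as log2 fold change (limma adjusted p = 0.194) and at -0.48 without WT replicate 1.

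Regulators upstream of the Regnases and of AU-rich mRNAs were 4 tested genes (Malt1, Bcl10, Arid5a and Elavl1). With limma, 0 of 4 passed the thresholds, and 1 was lower and 0 higher at an unadjusted p under 0.05. The groups did not overlap for 0 higher and 2 lower. Elavl1, which encodes the mRNA-stabilizing protein HuR, was at 3138, 1552 and 2164 normalized counts in WT replicates 1, 2 and 3 and at 1216, 1157 and 1085 in replicates 1, 2 and 3 labelled Bach2-deficient. All 3 of the latter lay below the lowest WT library (log2 fold change -0.93, SE 0.25, limma adjusted p = 0.144). Malt1, whose product cuts Regnase-1 and Roquins, overlapped between the groups, at 829 to 1477 normalized counts in WT and 1029.9 to 1909.5 in the libraries labelled Bach2-deficient.

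Of 13 ligase partners, 0 passed the thresholds with limma, 3 were higher and 2 lower at an unadjusted p under 0.05, and the groups did not overlap for 4 higher and 0 lower. Ndfip1, an adaptor that activates Itch, was at 5054, 3466 and 4212 normalized counts in WT replicates 1, 2 and 3 and at 1602, 1992 and 3905 in replicates 1, 2 and 3 labelled Bach2-deficient. Replicate 3 labelled Bach2-deficient lay among the WT libraries (log2 fold change -0.85, SE 0.31, limma adjusted p = 0.182). Keap1, the Cul3 adaptor for Nrf2, was at 142, 94.2 and 85.3 normalized counts in WT replicates 1, 2 and 3 and at 269, 228 and 184 in replicates 1, 2 and 3 labelled Bach2-deficient. Its groups were apart (log2 fold change 1.09, limma adjusted p = 0.158), and the value was 0.51 after the length and GC correction. It passed the thresholds with library weights (1.34, limma adjusted p = 0.000897, in a range up to 0.536). The anergy-associated ligase gene Dtx1 and Traf3 had groups apart as well, with log2 fold changes of 0.75 and 0.89 that were -0.053 and 0.26 after that correction.

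Of 15 tested relatives of the brakes from the same families, Zc3h12c reached 10 normalized counts in no library labelled Bach2-deficient and is left out of the counts. Among the other 14, 0 passed the thresholds with limma, 3 were higher and 1 lower at an unadjusted p under 0.05, and the same numbers had groups apart. Cbl, the closest relative of Cblb, was at 305, 671 and 536 normalized counts in WT replicates 1, 2 and 3 and at 1018, 920.0 and 1169 in replicates 1, 2 and 3 labelled Bach2-deficient. Its groups were apart (log2 fold change 1.11, SE 0.29, limma adjusted p = 0.141), with 0.63 after the length and GC correction. Cul2, a cullin like Cul3, was at 772, 514 and 617 normalized counts in WT replicates 1, 2 and 3 and at 393, 377 and 317 in replicates 1, 2 and 3 labelled Bach2-deficient. It was thus lower in all 3 of the latter (log2 fold change -0.79, limma adjusted p = 0.155). The Itch relative Smurf2 had a log2 fold change of 0.71 (0.34 after the correction) and groups apart. Zc3h12c, which encodes Regnase-3, was at 31.3, 21.3 and 14.6 normalized counts in WT and at 0, 1.34 and 3.07 in the libraries labelled Bach2-deficient, so it passed the filter through WT alone.

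Across the 6 libraries, the genes whose log2 levels followed Rc3h1 most closely were Fam102a (Pearson r = 0.999), Rasa3 (0.997), Senp6 (0.993), Irak1 (0.991) and Smug1 (0.991). For Zc3h12a they were Il4ra (0.984), Cd300ld (0.975), Kat2b (0.969), Crip1 (0.962) and Camk2n1 (0.960). These are the 5 highest of 11296 genes over libraries that share their groups and their depth, given as a description.

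The Tfh label was checked with 10 markers, all above 0 in each library. They summed to 31459, 32861 and 43319 normalized counts in WT replicates 1, 2 and 3 and to 30976, 24331 and 31406 in replicates 1, 2 and 3 labelled Bach2-deficient, led by Sh2d1a. The sums did not overlap, with all 3 libraries labelled Bach2-deficient below the lowest WT library, though the highest of them was close to it. Without Icos, which is also on a target list, the sums were 28912, 28782 and 38367 in WT and 29302, 22891 and 28895 in the libraries labelled Bach2-deficient, and these overlapped. Cd3e, a subunit gene of the T cell receptor complex, was at 10623, 9648 and 11924 normalized counts in WT replicates 1, 2 and 3 and at 4534, 5238 and 6140 in replicates 1, 2 and 3 labelled Bach2-deficient, with groups apart (log2 fold change -1.02, limma adjusted p = 0.141). Cxcr5, which was part of the sort, was at 1613, 1444 and 2039 normalized counts in WT and at 2028, 1271 and 2207 in the libraries labelled Bach2-deficient, with overlapping groups. Cd4 and Cd44, also part of the sort, had groups apart in the higher direction. Their log2 fold changes were 0.49 (limma adjusted p = 0.193) and 0.93 (limma adjusted p = 0.146). Pdcd1, the gene of PD-1 in the sort, overlapped between the groups (-0.26). Among the 10, 4 had groups apart in the higher (Cd4, Cd44, Bcl6 and Tox2) and 2 in the lower direction (Cd3e and Icos).

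Markers of cells outside the gate varied widely between WT libraries. The 6 B cell markers in the table summed to 242, 779.6 and 569.8 normalized counts in WT replicates 1, 2 and 3 and to 427, 336 and 328 in replicates 1, 2 and 3 labelled Bach2-deficient, led by Cd79b, with Ebf1 at 0 in WT replicate 2. The 5 plasma cell markers summed to 2096, 30267 and 8479 normalized counts in WT replicates 1, 2 and 3 and to 3396, 1701 and 1696 in replicates 1, 2 and 3 labelled Bach2-deficient, nearly all of it Jchain in WT replicate 2, with Sdc1 at 0 in WT replicate 1. The 7 myeloid markers summed to 2641, 9662 and 4864 normalized counts in WT replicates 1, 2 and 3 and to 3232, 7596 and 2289 in replicates 1, 2 and 3 labelled Bach2-deficient, led by Lyz2, with Itgam at 0 in WT replicate 1. These 3 sums overlapped between the groups, and WT replicate 2 was the highest library for each. Without Jchain, the plasma cell sums were 1780.5, 1464 and 1507 in WT and 1321, 1228 and 1212 in the libraries labelled Bach2-deficient, which did not overlap, with WT replicate 1 the highest. Of the tested genes on these lists, 1 of 5 for B cells, 1 of 3 for plasma cells and 1 of 6 for myeloid cells were lower at an unadjusted limma p under 0.05, and 0 were higher. Without WT replicate 2, the log2 fold change of Rc3h1 was 1.1 and that of Zfp36l2 was 1.18.

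A list of 7 genes often used as references was summed as well. These genes, led by Actb, summed to 245835, 252712 and 308464 normalized counts in WT replicates 1, 2 and 3 and to 185049, 195539 and 242003 in replicates 1, 2 and 3 labelled Bach2-deficient. The sums did not overlap, the median log2 fold change of the list was -0.41, and 3 of 7 were lower at an unadjusted limma p under 0.05 and 0 higher. After median rescaling, the log2 fold change of Rc3h1 was 0.84 and that of Zfp36l2 was 0.95, and their groups again did not overlap.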

How the data were processed

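RNA from 6 libraries, 3 a group, was measured by mRNA sequencing. The deposited signal per gene is a normalized read count that the authors made by dividing reads by library size factors. Upstream sources differ: the study's methods name Tophat2 and HTSeq, and the submitters' notes name STAR 2.5.2b, DESeq, R 3.5.1, DESeq2 1.20.0 and GRCm38/mm10. Dividing by the steps between values gave whole reads for 100% of values within a tolerance of 0.1. WT replicate 1 gave whole reads too, but with a step of 1.01, close to 1, its reads were not used as counts. The count tests took the other 5 libraries and called 0 genes higher and 0 lower (edgeR 4.0.16) and 33 higher and 57 lower (DESeq2 1.42.0).

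Genes with at least 10 in at least 3 libraries were tested with limma 3.58.1 (R 4.3.3, trended variance) on log2(value + 1), which understates changes of low genes, with Benjamini-Hochberg adjustment over 11296 genes. Ratios between brakes of the same family, and between the ligase genes Itch and Cblb, were tested by exact 2-sided permutation (scipy 1.17.1). Intervals are at 95%. The steps were tested on simulated data. For lengths and UTRs, 14329 genes matched GENCODE by symbol and 364 by an older symbol.

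Members and lists were chosen with earlier results of these data known. Named genes are the members, Bach2, all listed targets and substrates, in the lists of relatives, decay, upstream and partner genes the 4 of smallest unadjusted p under 0.05, the leading gene of each marker list, and the 5 genes most correlated with Rc3h1 and with Zc3h12a; other genes and values were chosen after their values were seen. Alternatives were pseudocounts of 0.5 and 5, other filters, median rescaling, quantile normalization, no variance trend, library weights, a length and GC correction (mgcv 1.9.3), a replicate block, and each library left out in turn. The block together with that correction was added after seeing the data. Proteins were not analysed here, and some listed genes are not reported here and were taken out of the counts, medians and sums of their lists.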

Additional observations from a re-analysis of the deposited data

How the results depend on the processing

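Among the values recomputed, 922 kept their direction and their side of the threshold, 40 reversed, 13 passed the threshold where the value as reported did not, and 7 counts moved. Past the thresholds, library weights called 561 genes higher and 567 lower and DESeq2 33 higher and 57 lower, while the other alternatives called 0 (limma without weights or edgeR, with 2301 at limma's unadjusted 0.05 level on deposited values). Brakes with groups apart in the higher direction numbered 4 after the length and GC correction (also Rc3h2 and Peli1), beside 8.91% of all genes, and 2 to 6 with a library left out, beside 17.0% to 27.2%, with 4 without WT replicate 2 (21.6%) and 6 without replicate 3 labelled Bach2-deficient (27.2%). Without the latter library, 507 genes had a limma adjusted p under 0.05, none of them a brake. With library weights 4168 genes did, among them 4 brakes: Rc3h1, Zfp36l2, Peli1 (limma adjusted p = 0.00371) and Cblb (limma adjusted p = 0.0127). DESeq2 on 5 libraries gave 368 genes at that level, none of them a brake.

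After the length and GC correction, with or without the replicate block, log2 fold changes turned to -0.11 for Zc3h12a, -0.36 for Zc3h12d, -0.12 for Itch, 0.094 for Ctla4, -0.021 for Rel, -0.26 for Jun, -0.29 for Foxo1 and -0.053 for Dtx1. Zc3h12d was -0.047 after median rescaling, -0.048 after quantile normalization, -0.073 with library weights, -0.020 in edgeR and -0.040 in DESeq2. Jun was -0.18 after quantile normalization. Library weights turned Il2ra (0.47) and Ier3 (0.70). On 5 libraries, edgeR turned Cul3 (-0.069) and Ier3 (0.47), and DESeq2 turned the same genes (-0.095 and 0.45). With each library left out in turn, ranges that crossed 0 were -0.033 to 0.38 for Zc3h12a, -0.066 to 0.18 for Zc3h12d, -0.22 to 0.019 for Zfp36, -0.040 to 0.25 for Itch, -0.070 to 0.48 for Cul3, -0.85 to 0.14 for Il2ra, -1.65 to 0.30 for Ier3, -0.50 to 1.05 for Jun and -0.19 to 0.38 for the log2 ratio of Zc3h12a to Zc3h12d. The cause was not tested.

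Same-numbered libraries shared little of their deviations from the group means, which correlated across genes at -0.0689, 0.116 and -0.0386. These values cannot show whether same-numbered libraries were prepared together. With the number as a block, limma called 0 genes past the thresholds, 3 brakes had an unadjusted p under 0.05, the smallest adjusted p was 0.219, and no call changed. Il6, Jun and Zc3h12c have no value under a mean of at least 50. Groups of 3 libraries limit the precision of each value.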

Other observations

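Immediate early genes, which respond within minutes to stimulation and to cell handling, were listed as 18 genes, of which 15 were tested. They summed to 7426, 4936 and 5812 normalized counts in WT replicates 1, 2 and 3 and to 7245, 7131 and 6958 in replicates 1, 2 and 3 labelled Bach2-deficient, led by Btg2, and the sums overlapped through WT replicate 1. With limma, 0 of 15 passed the thresholds, 3 were higher and 0 lower at an unadjusted p under 0.05, and 4 had groups apart in the higher direction. Their part in the values of the brakes was not tested.

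Of 7 markers of naive and central memory T cells, 1 was higher and 1 lower at an unadjusted limma p under 0.05, and 1 had groups apart, in the higher direction. The list summed to 11898, 12679 and 9591 normalized counts in WT replicates 1, 2 and 3 and to 14002, 13869.9 and 12027 in replicates 1, 2 and 3 labelled Bach2-deficient, led by Tcf7. The sums overlapped at WT replicate 2.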
